A study of Mus musculus with 4 samples.

Results

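The proteasome is the protease that degrades ubiquitin-tagged proteins, and its subunit genes were followed in bone marrow stem and progenitor cells of mice with and without chronic myeloid leukaemia (CML). The members are all gene rows whose symbol starts with Psma, Psmb, Psmc, Psmd or Psme and a digit, pseudogenes left out, which gave 45 of the 32265 genes in the files. They comprise 7 alpha-ring genes, 4 structural beta genes, 3 constitutive and 3 immune catalytic genes, 6 ATPase genes, 11 other regulatory-particle genes, 3 assembly chaperones, 4 activators and 4 further rows. The further rows are Psma8 (the testis form), Psmb11 (the thymic form), Psme2b (a copy of Psme2) and Psmc3ip, a recombination cofactor that matches the rule by name but is not a subunit.

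The barrel-shaped core of the proteasome is built from alpha and beta rings, and its proteolytic sites sit in the beta ring on Psmb5 (chymotrypsin-like), Psmb6 (caspase-like) and Psmb7 (trypsin-like). In immune cells, and elsewhere under interferon, Psmb8, Psmb9 and Psmb10 take the places of Psmb5, Psmb6 and Psmb7 and form the immunoproteasome, which shapes the peptides shown on MHC class I. Psme1 and Psme2 form a cap that opens this core, while the ATPase ring (Psmc) and the base and lid subunits (Psmd) recognise, unfold and feed in ubiquitinated proteins.

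Cells sorted as Lin-Sca1+cKit+ (LSK, the fraction that holds haematopoietic stem cells and early progenitors) came from C57BL/6 mice and were profiled by inDrop, a droplet method that counts transcript 3′ ends with unique molecular identifiers (UMIs). The groups were CML mice given imatinib, wild-type (WT) mice given imatinib, untreated CML mice and untreated WT mice, with 1 library each. Treated mice received 400 mg/kg imatinib, an inhibitor of the BCR-ABL kinase, by gavage every other day, over 30 days by the protocol and over 4 weeks by another label. The labels attach this protocol to the untreated samples as well, so treatment was taken from the sample titles, which the treatment labels match. The labels name no driver for the CML mice and give neither their age nor how many animals made up a library.

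After filtering, 5139 cells of the CML imatinib library, 4187 of WT imatinib, 3032 of CML untreated and 3030 of WT untreated were kept. The filter left out 1993 cells of CML imatinib, 1438 of WT imatinib, 0 of CML untreated and 3 of WT untreated. As deposited, the shallowest cell held 200 UMIs in CML imatinib and in WT imatinib, 1006 in CML untreated and 1001 in WT untreated. Kept treated cells below 1001 UMIs thus have no untreated counterpart of like depth. The part of this in the differences in depth and cell classes was not tested. Total UMIs lay between 8245224 (WT imatinib) and 21283108 (CML untreated), and the median per cell was 1198, 1486, 5160.5 and 3637.5 UMIs in that order of groups, so both treated libraries were the shallower ones. Levels are UMIs of a gene per 1000000 UMIs of the library (CPM). Each UMI stands for 1 captured transcript end, so levels were not divided by gene length, and how well an end is captured can still differ between genes. Because each group is 1 library, no test was possible, and all 95% intervals cover counting error only.

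The libraries differed in their makeup as well as their treatment. All 6 neutrophil markers were detected in every library, with summed levels of 8756 CPM in CML imatinib and 5863 CPM in WT imatinib, against 56.0 CPM in CML untreated and 26.8 CPM in WT untreated. All 9 erythroid markers summed to 2755 CPM in CML imatinib, 44.996 CPM in WT imatinib, 348 CPM in CML untreated and 299.8 CPM in WT untreated, and all 6 plasma cell markers to 7.65, 748, 6324 and 22526 CPM in that order. Of the genes behind the sort, Kit lay between 136 and 176 CPM, whereas Ly6a, which encodes Sca1, was at 51.0 and 49.6 CPM in the CML and WT imatinib libraries, against 95.8 and 192 CPM in CML and WT untreated. Xist, which is transcribed from the inactive X chromosome of females, was at 94.97 CPM in CML imatinib, 3.15 CPM in WT imatinib, 2375 CPM in CML untreated and 1.52 CPM in WT untreated. No label used here gives the sex of the mice, so a difference in sex and the groups cannot be told apart. The WT imatinib and WT untreated files shared 1135 cell names (39.6% of the smaller set, against 2.79% to 6.10% in the other pairs). To compare like-named cells, each gene's mean over the compared cells of its library was first subtracted from the log levels. This removes what the cells of a library have in common. Names were matched to columns with and without a shift of 1 column. The median cosine of what remained was between -0.0046 and 0.0036 for like-named cells over all pairs of libraries. For cells of different names it was -0.0063 to 0.0012. The part of these differences in the results below was not tested except where a value without the cells concerned is given.

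Summed over all 45 rows, proteasome transcripts made up a near-constant part of each library. They came to 7224 CPM in CML imatinib (95% interval 7170 to 7278), 7166 CPM in WT imatinib (7108 to 7224), 6563 CPM in CML untreated (6529 to 6598) and 6701 CPM in WT untreated (6656 to 6745). The log2 ratio of the sum was 0.14 for CML imatinib against CML untreated, 0.10 for WT imatinib against WT untreated, 0.01 for CML imatinib against WT imatinib and -0.03 for CML untreated against WT untreated. These small differences depend on the scaling. TMM factors, scaling factors from a trimmed mean of gene ratios, lower every log2 ratio of these comparisons by 0.32, 0.25, 0.24 and 0.17 in the same order. They make the ratio of the sum -0.18, -0.15, -0.22 and -0.20, while the median of all measured genes moves to -0.43, -0.34, -0.28 and -0.15. On the CPM scale the median over the measured members was 0.14, 0.14, 0.05 and -0.08, against -0.05, -0.05, -0.02 and 0.03 over all measured genes.

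Few members moved as far as 2-fold. With a floor of 50 CPM and 50 UMIs in the higher library, 39 of the 45 rows were measured in CML imatinib against CML untreated, and 2 were higher (Psmd3 and Psmd5) and 0 lower. Of all 4265 genes measured in that comparison, 9.4% were higher and 7.95% lower by the same rule. In WT imatinib against WT untreated 1 of 38 members was higher (Psmd3) and 0 were lower, beside 7.58% and 5.45% of all genes. With TMM factors none of these calls remained past 2-fold. No member passed in CML imatinib against WT imatinib, where 2.32% of genes were higher and 0.179% lower, or in CML untreated against WT untreated, where the shares were 0.523% and 0.392%. These last 2 comparisons also had no member past 1.5-fold, beside 5.29% of genes higher and 0.843% lower in the first and 2.38% and 1.28% in the second. At 1.5-fold, 6 of 39 members were higher and 0 lower in CML imatinib against CML untreated, beside 19.1% and 20.2% of genes. In WT imatinib against WT untreated, 3 of 38 were higher and 1 lower, beside 17.1% and 15.3%. Each of these counts, as a share of the measured members, is below the share over all genes. Of all 2-fold calls 54.2%, 58.2%, 92.9% and 57.1% were in the higher direction in the 4 comparisons, against 22.0%, 30.4%, 82.1% and 39.5% with TMM factors. The comparisons share libraries, so their values stand side by side and are not independent.

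**Figure D1:**
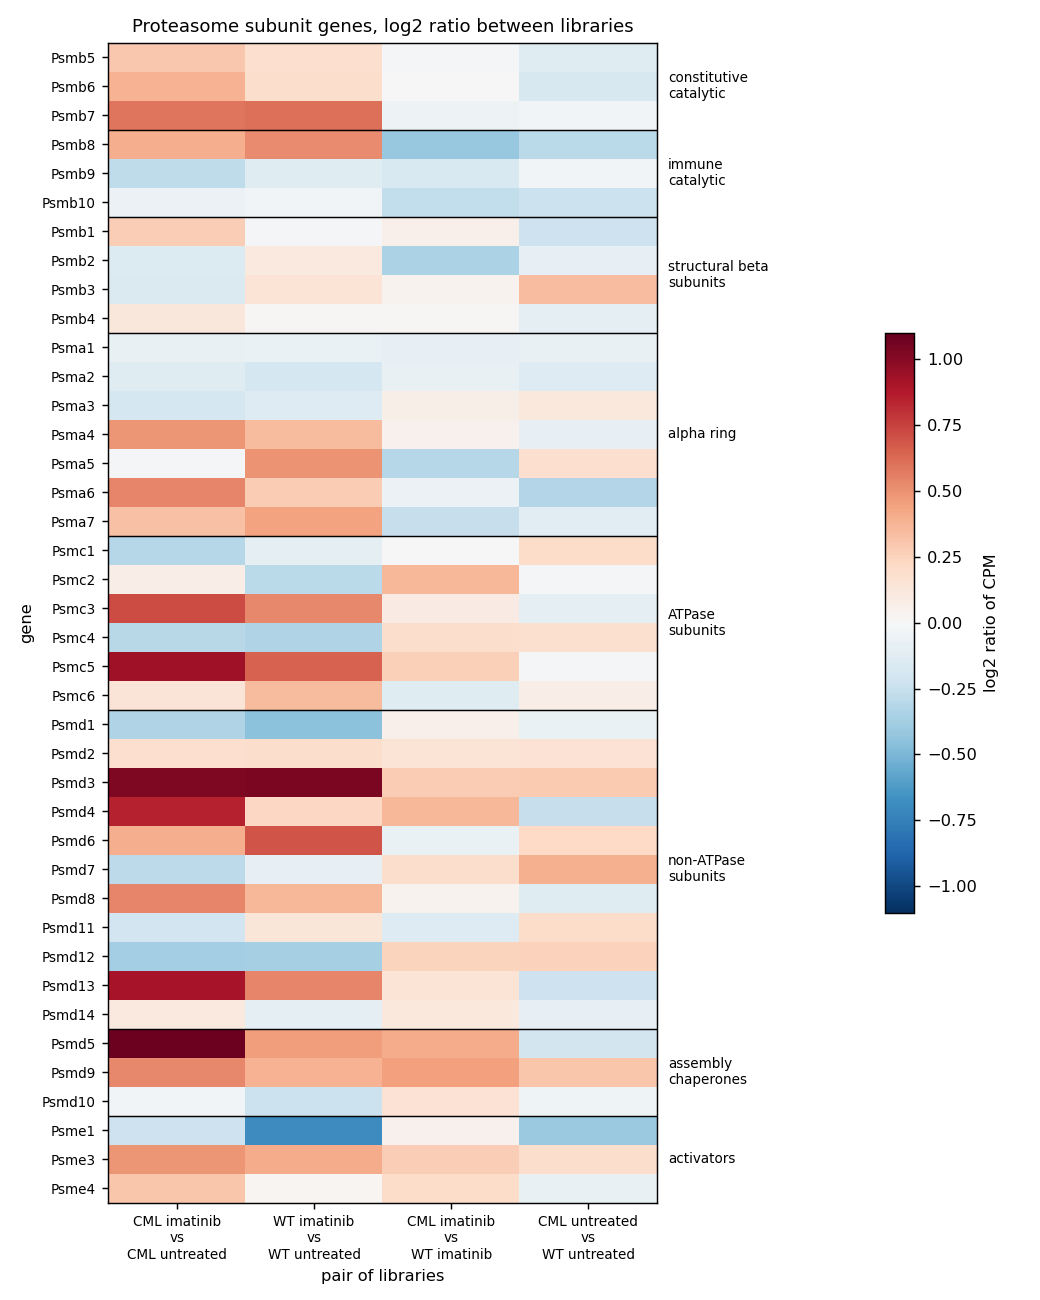
Log2 ratios of CPM for the 40 members outside the further rows and Psme2 (rows, by role) in each of the 4 pairs of libraries (columns). Red is higher and blue lower in the first-named library. Psmd3 is deep red in both comparisons with imatinib (1.03 in CML and 1.04 in WT) and Psmd5 in CML (1.08), while both comparisons of CML with WT stay between -0.42 and 0.45.

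The catalytic genes did not all move together. Summed, the constitutive ones had a log2 ratio for imatinib against untreated of 0.40 in CML and 0.31 in WT. The immune ones had 0.12 in CML and 0.24 in WT, so both sums were higher with imatinib on the CPM scale. In WT the intervals of the 2 sums overlapped (0.25 to 0.37 and 0.19 to 0.30). Psmb8, the immune chymotrypsin-like subunit, was at 274 CPM in CML imatinib, 366 CPM in WT imatinib, 208 CPM in CML untreated and 255 CPM in WT untreated. Its log2 ratio was 0.40 for imatinib against untreated in CML and 0.52 in WT. Both treated libraries were thus above their untreated counterparts, and each CML library was below the WT library of the same treatment (-0.42 with imatinib and -0.29 untreated). Psmb9, which replaces Psmb6, was instead at 105 CPM in CML imatinib, 119 CPM in WT imatinib, 128 CPM in CML untreated and 130.3 CPM in WT untreated, so the treated libraries were the lower ones (-0.28 in CML and -0.14 in WT). Psmb10, which replaces Psmb7, was at 111 CPM in CML imatinib, 134 CPM in WT imatinib, 116 CPM in CML untreated and 137 CPM in WT untreated. Its ratios to the untreated libraries were -0.07 in CML and -0.03 in WT, with intervals of -0.17 to 0.04 in CML and -0.14 to 0.07 in WT.

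Among the constitutive partners, Psmb7 showed the largest difference with treatment over all cells. It was at 150.0 CPM in CML imatinib, 156 CPM in WT imatinib, 99.9 CPM in CML untreated and 102 CPM in WT untreated, a log2 ratio of 0.59 in CML and 0.61 in WT. TMM factors lower these ratios by 0.32 in CML and 0.25 in WT, which leaves both positive. Within granulocyte-monocyte progenitors, a class defined below, Psmb7 had a ratio of 0.21 in CML and 0.40 in WT. Psmb5 was at 206 CPM in CML imatinib, 209 CPM in WT imatinib, 167 CPM in CML untreated and 183 CPM in WT untreated. Psmb6 was at 129 CPM in CML imatinib, 128 CPM in WT imatinib, 99.0 CPM in CML untreated and 112 CPM in WT untreated. Their ratios to the untreated libraries (0.30 and 0.19 for Psmb5, 0.38 and 0.20 for Psmb6) are positive on the CPM scale. With TMM factors Psmb5 turns to -0.02 in CML and -0.06 in WT, and Psmb6 to -0.06 in WT. Psmb5 also shares 65.0% of the 50-base stretches in the last 400 bases of its transcripts with the gene Gm3375, so some of its reads may have been assigned to either.

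Of the catalytic genes with an upstream window, Psmb8, its constitutive partner Psmb5 and Psmb6 are shown because each holds 1 of the motifs searched other than CCAAT. The window of Psmb9, not shown, held a CCAAT match on the opposite strand, 8 bases before the start. Each is the 250 bases before the annotated start in RefSeq (GRCm38.p6), read 5′ to 3′ on the gene's strand, at chr17:34197945-34198194 (+) for Psmb8, chr14:54617996-54618245 (-) for Psmb5 and chr11:70525107-70525356 (+) for Psmb6. Capitals mark TTCNNNGAA, a palindrome, in Psmb8, and TGACNNNGC, the core of the antioxidant response element, in Psmb5 and Psmb6.
Psmb8: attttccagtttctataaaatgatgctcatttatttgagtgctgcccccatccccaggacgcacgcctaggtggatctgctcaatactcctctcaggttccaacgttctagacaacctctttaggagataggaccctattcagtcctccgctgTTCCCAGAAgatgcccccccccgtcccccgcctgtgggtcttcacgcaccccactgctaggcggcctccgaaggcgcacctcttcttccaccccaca
Psmb5: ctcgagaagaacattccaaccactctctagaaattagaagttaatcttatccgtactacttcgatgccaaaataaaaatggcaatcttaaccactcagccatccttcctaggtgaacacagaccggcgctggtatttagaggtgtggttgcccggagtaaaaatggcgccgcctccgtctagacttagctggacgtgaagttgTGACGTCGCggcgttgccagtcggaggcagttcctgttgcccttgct
Psmb6: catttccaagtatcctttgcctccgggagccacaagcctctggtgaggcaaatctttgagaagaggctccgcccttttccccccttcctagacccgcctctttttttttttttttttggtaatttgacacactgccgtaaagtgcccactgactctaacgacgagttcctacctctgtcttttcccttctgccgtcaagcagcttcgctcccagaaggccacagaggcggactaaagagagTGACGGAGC
The match began 97 bases before the RefSeq start in Psmb8, 47 in Psmb5 and 9 in Psmb6. In the GENCODE annotation Psmb8 spans chr17:34197721-34201454 (+), so its whole window lies within the gene there. The Psmb9 window also lies within its GENCODE span. The Psmb5 window overlaps its span, chr14:54614119-54618022 (-), in part. Searched on both strands, TTCNNNGAA was in the windows of 1 of the 38 members matched by symbol (Psmb8) and in 8.13% of 27025 genes. TGACNNNGC was in 5 of the 38 (Psmb5, Psmb6, Psmc6, Psmd9 and Psmd12) and in 11.5% of genes. A pair of GAAA words with 2 bases between them, as in the interferon-stimulated response element, was in 3 of the 38 (Psmb3, Psmd4 and Psmd9) and in 3.46% of genes. CCAAT was in 15 of the 38 and in 37.5% of genes, and GGGNNNTCC, an NF-kB-like motif, was in 9 of the 38 and in 16.9% of genes. A match in these windows is a description of letters and not a binding site.

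**Figure D2:**
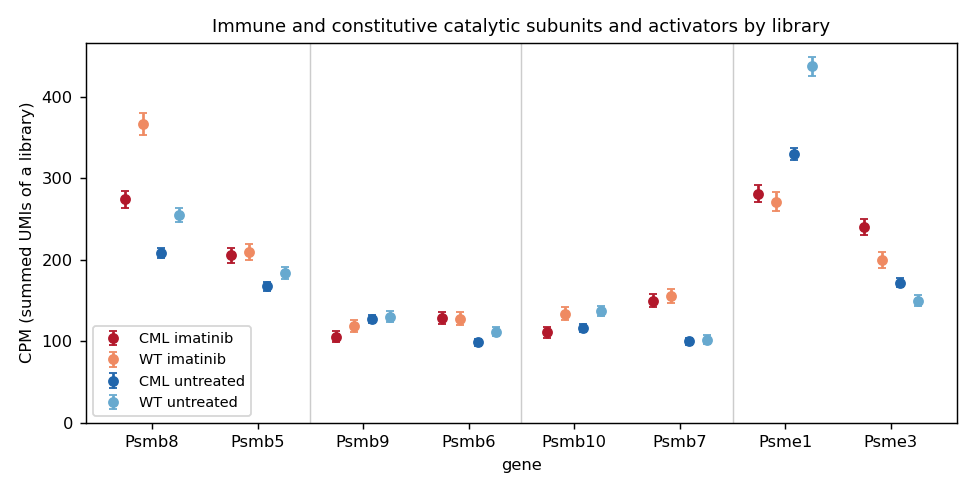
Level (CPM, y axis from 0) of the 3 immune and constitutive catalytic pairs and of Psme1 and Psme3 in the 4 libraries, with 95% Poisson intervals of the UMI counts. Psmb8 is highest in WT imatinib (366 CPM) and Psme1 in WT untreated (437 CPM), while Psmb7 is higher in both treated libraries.

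The immune share, defined here as the UMIs of Psmb8, Psmb9 and Psmb10 over those plus the UMIs of Psmb5, Psmb6 and Psmb7, does not depend on the scaling between libraries. It was 50.3% in CML imatinib (exact binomial 95% interval 49.3% to 51.4%), 55.7% in WT imatinib (54.7% to 56.7%), 55.3% in CML untreated (54.5% to 56.0%) and 56.8% in WT untreated (55.9% to 57.7%). The CML imatinib library was thus the low one, and the other 3 lay close together. Without the 211 cells called erythroid below, an alternative chosen after seeing the data, its share was 55.3%. It was 55.3% without the deepest 5% of cells and 56.7% with every cell thinned to 500 UMIs. The 3 pairs behaved differently. Psmb8 took 57.2% of the Psmb8 and Psmb5 UMIs in CML imatinib, 63.7% in WT imatinib, 55.5% in CML untreated and 58.2% in WT untreated. Psmb9 took 45.03% of the Psmb9 and Psmb6 UMIs in CML imatinib, 48.1% in WT imatinib, 56.3% in CML untreated and 53.8% in WT untreated. Psmb10 took 42.6% of the Psmb10 and Psmb7 UMIs in CML imatinib, 46.2% in WT imatinib, 53.8% in CML untreated and 57.3% in WT untreated. Over all cells, the share of the first pair was therefore higher with imatinib than without it, in CML and in WT. The shares of the other pairs were lower in both. Within granulocyte-monocyte progenitors, a class defined below, the other pairs differed less, except the Psmb10 pair in WT. For the first pair the CML intervals overlapped (55.7% to 58.6% with imatinib and 54.4% to 56.6% without). Those of WT did not (62.3% to 65.0% and 56.9% to 59.5%).

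The activators differed in direction too. Psme1, a subunit of the interferon-induced cap, was at 281 CPM in CML imatinib, 271 CPM in WT imatinib, 330 CPM in CML untreated and 437 CPM in WT untreated, so WT untreated stood above the other libraries. Its log2 ratio was -0.23 in CML and -0.69 in WT, which in WT is 1.61-fold lower with imatinib. Psme3, which activates the core in the nucleus, was highest in CML imatinib at 239.9 CPM, against 199 CPM in WT imatinib, 172 CPM in CML untreated and 150.0 CPM in WT untreated (log2 ratio 0.48 in CML and 0.41 in WT). Psme4, an activator tied to the breakdown of histones, stayed between 55.3 CPM (CML untreated) and 68.4 CPM (CML imatinib). Psme2 was recorded at 5.35 CPM in CML imatinib, 6.67 CPM in WT imatinib, 6.63 CPM in CML untreated and 5.63 CPM in WT untreated. This low count is uncertain, because Psme2 shares 68.9% of those 50-base stretches with Psme2b and reads that match both may not have been counted. Psme1 shares 17.4% with other genes.

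In the alpha ring, which gates entry to the core, no member reached 1.5-fold in any comparison. Psma6 (129 CPM in CML imatinib, 135 in WT imatinib, 88.9 in CML untreated, 111 in WT untreated) and Psma4 (409 CPM in CML imatinib, 396 in WT imatinib, 293 in CML untreated, 311 in WT untreated) had the largest ratios in CML, 0.53 and 0.48. In WT they were Psma5 (0.49) and Psma7 (0.44). Psma5 was at 175 CPM in CML imatinib, 219 in WT imatinib, 177 in CML untreated and 156 in WT untreated, but 53.8% of its 3′ stretches recur in other genes. Psma7 was at 294 CPM in CML imatinib, 349 in WT imatinib, 235 in CML untreated and 257 in WT untreated, and on imatinib it was lower in CML than in WT (-0.25). The structural beta genes Psmb1 to Psmb4 moved by at most 0.27 with imatinib. Psmb3 was the largest of them between untreated CML and WT, at 243 and 191 CPM (0.34), with 64.1% of its 3′ stretches shared with other genes.

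Among the ATPases, which unfold substrates, Psmc3 was higher with imatinib in CML and in WT. It was at 171 CPM in CML imatinib, 160.2 CPM in WT imatinib, 104 CPM in CML untreated and 111 CPM in WT untreated, or 0.72 in CML and 0.53 in WT. Psmc4 went the other way, at 150.4 CPM in CML imatinib, 131 CPM in WT imatinib, 186 CPM in CML untreated and 165 CPM in WT untreated (-0.31 and -0.33). Psmc5, at 23.7 to 45.3 CPM, was under the floor in every library and had the largest ratios of the ring, 0.94 in CML and 0.65 in WT. Psmc2 was at 139 CPM in CML imatinib against 108 CPM in WT imatinib, a ratio of 0.36.

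The base and lid subunits held Psmd3, the single member past 2-fold in both comparisons with imatinib on the CPM scale, whose ratio was 0.71 in CML and 0.79 in WT with TMM factors. Psmd3, a lid scaffold, was at 132 CPM in CML imatinib, 108 CPM in WT imatinib, 64.6 CPM in CML untreated and 52.8 CPM in WT untreated. That is 2.04-fold higher with imatinib in CML (log2 ratio 1.03, 95% interval 0.92 to 1.14) and 2.06-fold in WT (1.04, interval 0.89 to 1.18). Psmd13, another lid subunit, was at 169 CPM in CML imatinib, 153 CPM in WT imatinib, 90.1 CPM in CML untreated and 105 CPM in WT untreated (0.91 and 0.54). Psmd4, a ubiquitin receptor, was at 156 CPM in CML imatinib, 121 CPM in WT imatinib, 87.0 CPM in CML untreated and 104 CPM in WT untreated, a ratio of 0.84 in CML and 0.22 in WT, the second of which turns to -0.03 with TMM factors. Psmd6 of the lid was 1.61-fold higher with imatinib in WT (113 against 70.3 CPM) and had a ratio of 0.40 in CML. Psmd1, a large base scaffold, was lower with imatinib in both (-0.33 and -0.45), with 72.9% of its 3′ stretches shared with Gm21972. Psmd7, a lid subunit, had the largest ratio between CML untreated and WT untreated (279 and 213 CPM, 0.39). Psmd12 of the lid was lower with imatinib (-0.37 and -0.36), at 103 CPM in CML imatinib, 87.2 CPM in WT imatinib, 134 CPM in CML untreated and 112 CPM in WT untreated.

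The chaperones that assemble the regulatory particle were highest as a group in CML imatinib. Summed over Psmd5, Psmd9 and Psmd10 they were at 213 CPM in CML imatinib, 167 CPM in WT imatinib, 145 CPM in CML untreated and 146 CPM in WT untreated. Psmd5 was at 96.4 CPM in CML imatinib, 72.5 CPM in WT imatinib, 45.6 CPM in CML untreated and 52.6 CPM in WT untreated. It was 2.11-fold higher in CML imatinib than in CML untreated (log2 ratio 1.08, interval 0.95 to 1.21), with 0.46 for imatinib in WT. Psmd9 had 60.1 CPM in CML imatinib, 43.9 in WT imatinib, 41.7 in CML untreated and 33.7 in WT untreated. Without the erythroid cells no member was higher by 2-fold in CML imatinib than in CML untreated, and the ratio of Psmd3 was 0.68 and that of Psmd5 0.88.

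To see which cells carried these differences, each cell was placed in a class by its share of marker UMIs, with no proteasome gene among the markers. A class is a range of that score and not a cell type, and its rule was set after seeing the data. Cells called granulocyte-monocyte progenitors (Mpo, Elane, Prtn3, Ctsg, Ms4a3) made up 58.0% of CML imatinib cells and 60.3% of WT imatinib cells, against 7.68% in CML untreated and 7.49% in WT untreated. Cells of no class made up 17.1%, 20.3%, 71.9% and 65.0% in the same order. Cells that met several classes numbered 605, 417, 23 and 96 and were left out of all classes.

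**Figure D3:**
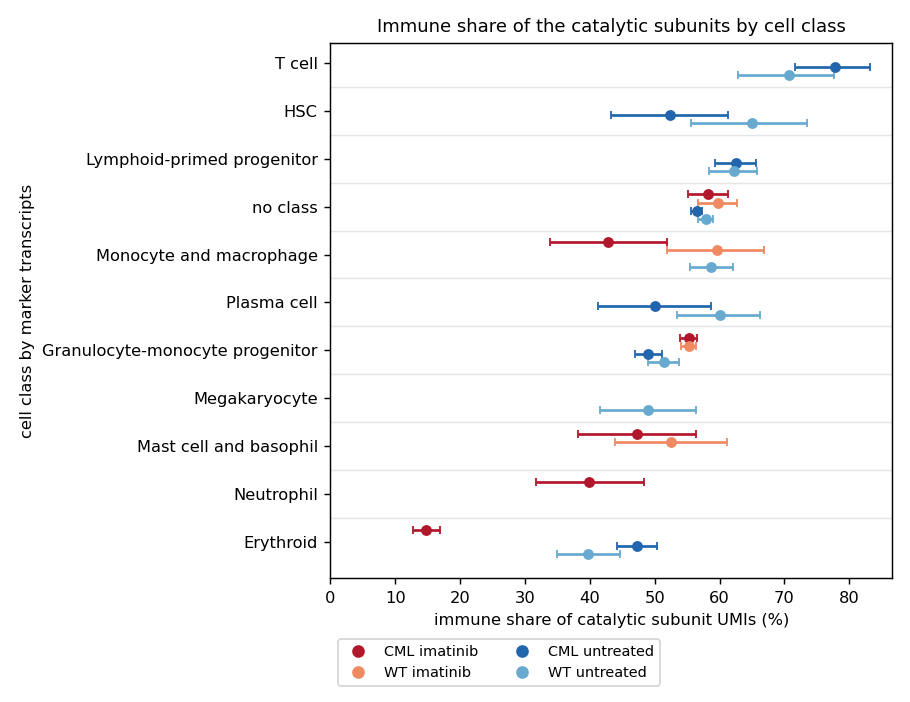
Immune share of the catalytic subunit UMIs (%, x axis) by cell class and library, for classes with at least 50 cells and 100 of these UMIs, with exact binomial 95% intervals. T cells lie highest (77.8% and 70.7%) and the erythroid cells of CML imatinib lowest (14.7%).

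By class the immune share ranged from 14.7% to 77.8%, against 50.3% to 56.8% by library. It was highest in cells with T cell markers, at 77.8% in CML untreated (71.6% to 83.1%, 77 cells) and 70.7% in WT untreated (62.9% to 77.7%, 51 cells). Lymphoid-primed progenitors (Dntt, Flt3, Il7r, Satb1, Rag1) were at 62.5% in CML untreated and 62.2% in WT untreated, from 171 and 228 cells. Cells with stem cell (HSC) markers were at 52.3% in CML untreated (43.3% to 61.2%) and 65.0% in WT untreated (55.6% to 73.5%), from 51 cells each, so these intervals overlap. Cells with plasma cell markers held 67 immune among 134 catalytic UMIs in CML untreated and 141 among 235 in WT untreated. Megakaryocyte-marked cells were at 48.9% in WT untreated, and mast cell and basophil cells at 47.2% in CML imatinib and 52.6% in WT imatinib. Monocyte and macrophage cells were at 42.7% in CML imatinib (60 cells), 59.5% in WT imatinib and 58.7% in WT untreated. The first of these values rested on its 10 deepest cells, which held 47.6% of its catalytic UMIs, and was 50.8% without them, from 65 UMIs. Cells with neutrophil markers in CML imatinib were at 39.9%, and at 44.2% without their 10 deepest cells.

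Erythroid-marked cells stood at the low end. Their immune share was 14.7% in CML imatinib (12.7% to 16.9%, 167 of 1136 UMIs, 211 cells), against 47.3% in CML untreated (44.2% to 50.4%, 126 cells) and 39.7% in WT untreated (35.0% to 44.6%, 83 cells). WT imatinib had 18 such cells, too few to report. In CML untreated the interval of the erythroid cells overlapped that of the granulocyte-monocyte progenitors (46.9% to 51.1%). In WT untreated it overlapped that of the megakaryocyte-marked cells (41.6% to 56.3%). Within CML imatinib the erythroid cells lay far below the granulocyte-monocyte progenitors (55.2%) and the cells of no class (58.3%). The intervals do not overlap, and without the 10 deepest of the 211 cells the share was 15.4%. The erythroid markers themselves were stronger there. The 9 markers summed to 15226 CPM in the erythroid cells of CML imatinib, 3993 CPM in CML untreated and 4225 CPM in WT untreated, and Hbb-bs, a haemoglobin gene of maturing red cells, was at 4630.0 CPM, 12.4 CPM and 44.1 CPM. Depth differed as well, with medians of 2501 UMIs in CML imatinib, 7613.5 in CML untreated and 6597 in WT untreated. In that order 1, 18 and 11 of these cells lay within 20% above the cut. On cells thinned to 500 UMIs the class held 24 cells in CML untreated and 18 in WT untreated, too few for a comparison at equal depth. The part of marker level and of depth in the immune share was not tested.

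Both sides of the share differed in those cells. The 10 deepest of the 211 erythroid cells of CML imatinib held 25.7% of the UMIs of the class and 37.0% of its catalytic UMIs. The levels below include those 10 cells, and how far each gene's level rests on them was not tested. Psmb8 was at 23.3 CPM in the erythroid cells of CML imatinib, 128 CPM in those of CML untreated and 114 CPM in those of WT untreated, which is 5.504-fold lower in CML imatinib than in CML untreated. Psmb9 was 3.70-fold lower, with 35.2 CPM in CML imatinib, 130.5 in CML untreated and 77.2 in WT untreated, and Psmb10 was 2.96-fold lower, with 41.2, 122 and 110.3 CPM. Psmb7 was at 193 CPM, against 112 CPM in CML untreated and 90.1 CPM in WT untreated, and Psmb6 at 145, 99.6 and 108 CPM. Psmb5, at 240.0, 212 and 259 CPM, did not differ beyond its interval between CML imatinib and CML untreated (0.18, -0.05 to 0.40). In this comparison of erythroid cells 5 of 40 measured members were at least 2-fold higher (Psmd3, Psmd4, Psmd5, Psmd13 and Psme4) and 4 lower (Psmb2, Psmb8, Psmb9 and Psmb10). Of all genes 18% were higher and 16.8% lower, so neither count exceeds the background. At 1.5-fold 12 were higher and 5 lower, beside 30.1% and 27.6% of genes. Psmd3 was at 278 CPM, against 93.4 CPM in CML untreated, Psmd4 at 291 against 105 CPM, and Psmd5 at 173 against 79.5 CPM. Of 8 measured antigen processing genes in the same cells, 0 were higher and 4 lower at 2-fold, beside the 18% and 16.8% of all genes, and their median log2 ratio was -1.08. B2m, the light chain of MHC class I, was at 1363 CPM in the erythroid cells of CML imatinib against 7101 CPM in CML untreated (5.21-fold lower), and H2-K1, a heavy chain, at 309 against 2051 CPM (6.63-fold lower). Tap1, a peptide transporter beside Psmb9 in the genome, was at 93.2 against 127 CPM. In CML untreated against WT untreated, 0 of 38 members were 2-fold apart in erythroid cells, beside 3.27% of genes higher and 0.545% lower, and 1 was higher and 2 lower at 1.5-fold, beside 11.4% and 5.68%.

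Granulocyte-monocyte progenitors could be compared across all 4 libraries, with 2980, 2523, 233 and 227 cells, of which 193, 148, 49 and 50 lay within 20% above the cut. Within this class TMM factors moved the ratios by at most 0.05. Psmb8 was at 338 CPM in CML imatinib, 365 CPM in WT imatinib, 202 CPM in CML untreated and 243 CPM in WT untreated. The log2 ratio was 0.74 with imatinib in CML (0.60 to 0.89) and 0.58 in WT (0.43 to 0.74), larger than in the libraries as a whole. Psmb9 (0.02 in CML and -0.21 in WT) and Psmb10 (0.13 in CML and -0.13 in WT) had intervals that include 0. Summed, the immune catalytic genes were at 588 CPM in CML imatinib, 621 CPM in WT imatinib, 439.7 CPM in CML untreated and 531 CPM in WT untreated, while the constitutive catalytic genes were at 477, 503, 458 and 502 CPM. The immune share was 55.2% in CML imatinib (53.9% to 56.5%), 55.2% in WT imatinib (54.0% to 56.4%), 49.0% in CML untreated (46.9% to 51.1%) and 51.4% in WT untreated (49.0% to 53.8%). Psmb8 took 61.7% and 63.1% of its pair in CML and WT imatinib, against 48.7% and 50.3% in CML and WT untreated. Psmb9 took 49.5% and 48.2%, against 49.8% in both, with intervals that overlap. Psmb10 took 47.2% against 48.7% in CML, with intervals that overlap. In WT it took 45.8% against 55.0%, and there they do not overlap. In this class the share over all 3 pairs was thus higher with imatinib, whereas over all cells of the CML libraries it was lower. With classes set on cells thinned to 500 UMIs it was 57.3% in CML imatinib against 51.5% in CML untreated, but 53.9% in WT imatinib against 53.7% in WT untreated. Depth differed here as well, with medians of 1348 and 1923 UMIs in CML and WT imatinib against 8387 and 7067 in CML and WT untreated. Neutrophil markers in these cells summed to 1542 and 1047 CPM with imatinib, against 272 and 154 CPM without, with Camp and Ltf at 0 in CML untreated and Ngp at 0 in WT untreated. The part of depth and of these transcripts in the difference was not tested.

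Outside the catalytic genes the same class showed differences in both directions. No member was 2-fold apart in any of the 4 comparisons, where 5.08% of genes were higher and 4.88% lower in CML imatinib against CML untreated, 4.1% and 2.05% in WT imatinib against WT untreated, 0.515% and 0.0813% in CML imatinib against WT imatinib, and 0.62% and 0.181% in CML untreated against WT untreated. At 1.5-fold, Psmb8 was higher and 4 members lower in CML imatinib against CML untreated (14.3% and 19.4% of genes), and Psmd3 was higher and 3 members lower in WT imatinib against WT untreated (10.5% and 13%). None passed in CML imatinib against WT imatinib (1.52% and 0.298%) or in CML untreated against WT untreated (4.78% and 3.13%). Psmd3 had a ratio of 0.56 in CML and 0.80 in WT, and Psmd5 of 0.44 and 0.51. Psmc1, an ATPase, was lower with imatinib (-0.78 and -0.59), as were the ATPase Psmc4 (-0.52 and -0.46), Psmd1 (-0.66 and -0.74), Psmd12 (-0.49 and -0.79) and Psma2 (-0.40 in both). Psmb3 was lower in CML (-0.66). Psme1 was at 297 CPM in CML imatinib, 269 CPM in WT imatinib, 296 CPM in CML untreated and 359.8 CPM in WT untreated, a ratio of 0.01 in CML and -0.42 in WT. The sum over all members was lower with imatinib in this class (6884 CPM in CML imatinib and 7169 CPM in WT imatinib, against 7435 CPM in CML untreated and 7592 CPM in WT untreated), while over all cells it was higher on the CPM scale. In cells of no class the sum was higher with imatinib, at 7478 and 7579 CPM in CML and WT imatinib, against 6406 and 6694 CPM in CML and WT untreated. TMM factors within those cells lower the ratios by 0.49 in both comparisons with imatinib, and that direction then turns.

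**Figure D4:**
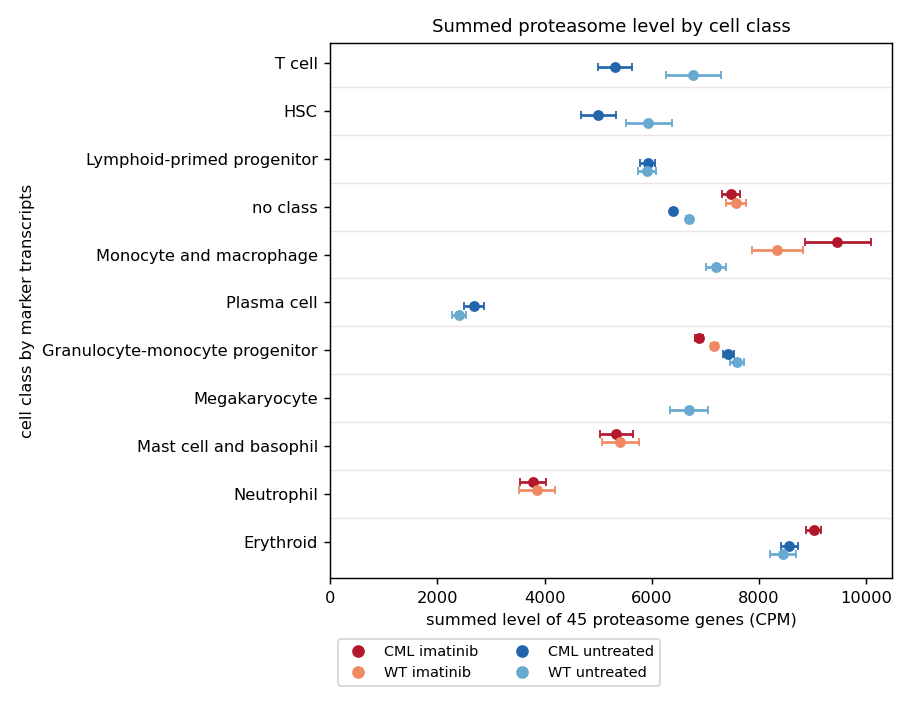
Summed level of the 45 proteasome rows (CPM, x axis from 0) by cell class and library, for classes with at least 50 cells, with 95% Poisson intervals. Monocyte (9466 CPM) and erythroid cells (9025 CPM) of CML imatinib lie highest and plasma cells lowest, at 2682 CPM in CML untreated and 2403 CPM in WT untreated.

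The summed level also differed between classes. Erythroid cells carried 9025 CPM in CML imatinib, 8567 CPM in CML untreated and 8455 CPM in WT untreated, and monocyte and macrophage cells 9466 CPM in CML imatinib, 8345 CPM in WT imatinib and 7201 CPM in WT untreated. Without the 10 deepest cells of each class, erythroid cells were at 8283 CPM in CML imatinib, 8396 in CML untreated and 8255 in WT untreated. The order of the CML libraries thus turned. Monocyte and macrophage cells of CML imatinib were then at 8687 CPM. Lymphoid-primed progenitors were at 5925 CPM in CML untreated and 5917 CPM in WT untreated, and HSC-marked cells at 5001 and 5935 CPM. The lowest values were those of plasma cells, at 2682 CPM in CML untreated and 2403 CPM in WT untreated, and of neutrophils, at 3782 CPM in CML imatinib and 3850.2 CPM in WT imatinib. In these classes their own markers, chiefly immunoglobulins and granule proteins, filled 43.7% and 52.3% of plasma cell UMIs and 22.7% and 20.7% of neutrophil UMIs in the same order. Without those markers in the total, plasma cells were at 4759 CPM in CML untreated and 5043 CPM in WT untreated, and neutrophils at 4891 CPM in CML imatinib and 4853 CPM in WT imatinib. Per cell, the median share of UMIs from proteasome genes was 0.647% in CML imatinib, 0.679% in WT imatinib, 0.610% in CML untreated and 0.640% in WT untreated.

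Genes that work with the proteasome were read in the same way, against 9.4% of all genes higher and 7.95% lower in CML imatinib against CML untreated, and 7.58% and 5.45% in WT imatinib against WT untreated. Of 9 measured antigen processing genes, 0 were higher and 2 lower at 2-fold in CML imatinib against CML untreated: B2m (2836 against 6547 CPM, ratio -1.21) and H2-K1 (878 against 2379 CPM, ratio -1.44). In WT imatinib against WT untreated 1 was higher, Pdia3 (326 against 110.5 CPM, ratio 1.56), and 0 were lower. Of 9 measured assembly and accessory genes, Psmg4, which helps build the alpha ring, was the single one past 2-fold in both. It was at 39.3 CPM in CML imatinib, 42.2 CPM in WT imatinib, 85.2 CPM in CML untreated and 98.3 CPM in WT untreated. Its partner Psmg3 went the other way, with 96.9 CPM in CML imatinib, 78.5 in WT imatinib, 49.5 in CML untreated and 42.3 in WT untreated (0.97 and 0.89). Sem1, a small lid subunit outside the Psm names, was at 453 CPM in CML imatinib, 549.8 CPM in WT imatinib, 250.4 CPM in CML untreated and 304 CPM in WT untreated (0.86 and 0.85). Of the interferon signalling genes, 0 of 5 measured passed in CML, while in WT 1 of 4 was higher (Ifngr1, 378 against 129 CPM) and 1 lower (Irf9, 40.3 against 86.9 CPM). None of the 4 measured regulators of proteasome transcription passed in any comparison. Nfe2l1, the factor that raises proteasome genes when the proteasome is blocked, was below the floor in every library, at 37.0 CPM in CML imatinib, 39.5 CPM in WT imatinib, 23.8 CPM in CML untreated and 26.5 CPM in WT untreated. None of the 4 measured ubiquitin genes passed either.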

How the data were processed

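Each deposited file holds 1 library as genes by cells, in a normalized signal: per the file's values, the authors scaled every cell to nearly the same total. Partek 8.0, Bowtie 1.1.1 and the build GRCm38 (mm10) are named, per the submitters' processing notes, with no role given in the sources used here. Dividing each cell by its smallest value above 0 gave whole UMIs for 100% of values, within a tolerance of 0.02. Headers hold 1 name more than there are cell columns, so cells were taken by position. Cells with at least 500 UMIs, at least 200 genes and at most 20% mitochondrial UMIs were kept.

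UMIs were summed per library and scaled to CPM. Ratios have exact conditional binomial 95% intervals, levels exact Poisson ones and shares exact binomial ones. A gene was measured if its higher library reached 50 CPM and 50 UMIs, and called at 2-fold. No gene was tested, since each group is 1 library. A cell joined a class with at least 3 UMIs from at least 2 markers of it, and at least 1% of its UMIs from them for granulocyte-monocyte progenitors, neutrophils and plasma cells or 0.2% for the others. This rule was set after seeing the data, and classes with at least 50 cells are reported. The members and lists were chosen with earlier results of these data known. Catalytic and activator genes are named in full, and of each other group up to 3 members with the largest ratio in a comparison, in all cells. Members named within a cell class were chosen after their values were seen. No doublet caller was run, and the deepest 5% of cells were left out as an alternative. The interval and call steps were run on simulated Poisson counts, the model that the intervals assume. The simulation held no spread between cells or libraries, so it checks the computation and not how well the intervals cover such spread. Shared 3′ stretches were counted in GENCODE transcripts. Tools were Python 3.11.15, numpy 2.4.6, scipy 1.17.1, pandas 2.3.3, matplotlib 3.10.9, R 4.3.3 and edgeR 4.0.16, the last for TMM factors.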

Additional observations from a re-analysis of the deposited data

Results flagged for a closer look

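The ratio of imatinib to untreated had opposite signs in CML and in WT for 7 measured members, and for 3 of them both counting intervals left out 0. The difference was not tested, since each group is 1 library. Psmb3, a structural beta subunit, had a log2 ratio of -0.158 in CML and 0.147 in WT. Psmd11, a lid subunit, had -0.211 in CML and 0.132 in WT. Psmd14, the deubiquitinase of the lid, had 0.107 in CML and -0.0992 in WT. These signs hold on the CPM scale only: with TMM factors all 3 ratios that were positive turn negative.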

How the results depend on the processing

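No paired analysis was possible because each group is 1 library and the labels give no replicate numbers. With TMM factors the ratio of the summed level changed sign in every comparison in which it was positive on the CPM scale, and 9 measured members turned in CML imatinib against CML untreated, 9 in WT imatinib against WT untreated, 17 in CML imatinib against WT imatinib and 3 in CML untreated against WT untreated. The cause of each move below was not tested. Leaving out erythroid cells or the 10 deepest cells of a class, and TMM factors within a class, were chosen after seeing the data.

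With calls at 1.5-fold, 6 members were higher in CML imatinib against CML untreated, and 3 higher and 1 lower in WT imatinib against WT untreated. With TMM factors 0 members were higher in both, and the log2 ratio of the summed level was -0.18 in CML imatinib against CML untreated, -0.15 in WT imatinib against WT untreated, -0.22 in CML imatinib against WT imatinib and -0.20 in CML untreated against WT untreated. With at least 1000 UMIs per cell the immune share of CML imatinib was 49.2% and its summed ratio to CML untreated 0.15. With totals that leave out ribosomal, mitochondrial and haemoglobin genes the summed ratio was 0.17 in CML imatinib against CML untreated and -0.073 in CML untreated against WT untreated.

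As a mean of single-cell CPM the immune share was 55.6% in CML imatinib, 56.9% in WT imatinib and 57.2% in CML untreated, 0 members were higher in CML imatinib against CML untreated, and the summed ratio was 0.15 in WT imatinib against WT untreated and -0.035 in CML imatinib against WT imatinib. Thinned to 500 UMIs, the share was 56.7% in CML imatinib, 57.5% in CML untreated and 58.5% in WT untreated, 1 member was higher in CML imatinib against CML untreated, and the 2 ratios were 0.15 and -0.043. Without cells of mature classes the share was 55.4% in CML imatinib, 0 members were higher, and the summed ratio was 0.11 in CML imatinib against CML untreated, -0.061 in CML imatinib against WT imatinib and -0.062 in CML untreated against WT untreated. Without the deepest 5% of cells the share was 55.3% in CML imatinib and 56.1% in CML untreated, 0 members were higher, and the ratio was 0.11 in CML imatinib against CML untreated, 0.13 in WT imatinib against WT untreated and -0.053 in CML imatinib against WT imatinib. Without erythroid cells the share was 55.3% in CML imatinib, 0 members were higher, and the ratio was 0.088, 0.11 and -0.067 in those 3 comparisons and -0.042 in CML untreated against WT untreated.

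With the class cut doubled the immune share was 12.6% in erythroid cells of CML imatinib and 44.1% in those of CML untreated, 53.4% in granulocyte-monocyte progenitors of WT imatinib and 49.8% in neutrophils of CML imatinib. The summed level was then 9365 CPM in erythroid cells of CML imatinib and 8925 CPM in those of CML untreated. In granulocyte-monocyte progenitors it was 6529 CPM in CML imatinib, 6848 CPM in WT imatinib and 6989.7 CPM in CML untreated. In lymphoid-primed progenitors it was 5661 CPM in CML untreated and 5733 CPM in WT untreated, in mast cells and basophils of CML imatinib 5777 CPM, in monocytes and macrophages of WT untreated 6462 CPM and in neutrophils of CML imatinib 4062 CPM. In cells of no class it was 7735, 8036, 6589.8 and 6867 CPM in CML imatinib, WT imatinib, CML untreated and WT untreated. With classes on thinned cells the share was 57.3% in granulocyte-monocyte progenitors of CML imatinib, 53.9% in those of WT imatinib and 51.5% in those of CML untreated, and in cells of no class 57.8% in CML untreated and 54.9% in WT untreated. The summed level was 7703 CPM in erythroid cells of CML imatinib, 7041 CPM in granulocyte-monocyte progenitors of CML imatinib and 7355 CPM in those of WT untreated, 5475 CPM in lymphoid-primed progenitors of WT untreated, 3451 CPM in plasma cells of CML untreated and 2814 CPM in those of WT untreated, and in cells of no class 7218 CPM in WT imatinib, 6229.5 CPM in CML untreated and 6456 CPM in WT untreated. Without the 10 deepest cells it was 8283 CPM in erythroid cells of CML imatinib and 8396 CPM in those of CML untreated, 8687 CPM in monocytes and macrophages of CML imatinib, 3376 CPM in neutrophils of WT imatinib and 5567 CPM in lymphoid-primed progenitors of CML untreated. With TMM factors in granulocyte-monocyte progenitors the ratio of the sum was -0.083 in CML untreated against WT untreated. In all, 17 immune shares, 78 counts of members, 15 summed ratios and 86 class values moved by less than their intervals or limits. By contrast, 11 immune shares, 10 counts of members, 21 summed ratios and 38 class values moved by more. Of the ratios of members called at 2-fold, 15 moved by more and 12 by less. In a further 36 combinations of class, library and setting, the share, alone or with the summed level, missed the limits on cells or UMIs. These values were not compared, among them the 50.8% given for monocytes of CML imatinib.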
